A study of Homo sapiens with 6 samples.

Results

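The genes described here are 10 that encode secreted inflammatory cytokines and colony-stimulating factors which pancreatic tumour cells can make themselves: IL1A, IL1B, IL1RN, IL6, LIF, IL32, IL23A, CSF1, CSF2 and CSF3. They were chosen by name, and all 10 were found among the 19402 genes of the count table. RNA came from CFPAC1, an established human line of pancreatic ductal adenocarcinoma. The IRF1-KO group holds 3 pools of clones isolated by dilution after infection with the lentiCRIPSv2 plasmid (spelled as in the labels) expressing wild-type Cas9 and a guide RNA against IRF1. The WT group holds 3 pools of clones isolated the same way from cells infected with lentiCRIPSv2, for which the labels name no guide. Clones were pooled, so a library averages several clones, and the labels name no cytokine treatment of these cells. The comparison asked which transcripts differ between pools that carry the IRF1 edit and their controls.

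Interleukin-1 alpha and beta are alarm cytokines that act on 1 shared receptor, IL1R1, and the product of IL1RN blocks that receptor. IL-6 and LIF signal through the shared receptor chain IL6ST to JAK kinases and STAT3, and the colony-stimulating factors drive the production and survival of macrophages and granulocytes. In pancreatic cancer, tumour-derived cytokines of these families are known for acting on fibroblasts and myeloid cells of the stroma. Many of their genes are driven by NF-kappaB, C/EBP and AP-1 factors, and IRF1 is an interferon-induced transcription factor that can act beside NF-kappaB.

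Total counts ranged from 16413682 to 28258075 in IRF1-KO libraries and from 18394715 to 21003927 in WT libraries. IRF1 itself had 117, 123 and 132 CPM in IRF1-KO libraries, against 87.3, 91.3 and 82.6 CPM in WT libraries, where CPM is the count scaled to library size with TMM factors. Its log2 fold change was 0.51 ± 0.10 (SE; adjusted p = 0.135 with edgeR, 0.00105 with DESeq2), so the targeted transcript was not lower in IRF1-KO. A count over all exons need not fall after a small Cas9 edit, so it does not check the label, and IRF1-KO below means the libraries labelled so. Of 10 epithelial markers, 9 averaged at least 1 CPM, and the summed level was 5050 to 6960 CPM in IRF1-KO and 4440 to 7580 CPM in WT. CFTR, an epithelial marker, averaged under 1 CPM. Of 8 leukocyte markers 3 averaged at least 1 CPM, with a summed level of 130 to 157 CPM in IRF1-KO and 129 to 188 CPM in WT, mostly CD68 (144 CPM in IRF1-KO and 149 CPM in WT), with CD14 and ITGAM averaging under 2 CPM. Of 6 fibroblast markers 2 did (COL1A1 and COL1A2), the sum being 35.2 to 76.3 CPM in IRF1-KO and 32.5 to 49.9 CPM in WT. COL1A1 averaged 55.7 CPM in IRF1-KO and 35 CPM in WT. Of 4 endothelial markers 2 did (KDR and PECAM1), with a sum of 6.98 to 8.17 CPM in IRF1-KO and 5.31 to 7.21 CPM in WT. The defining markers PTPRC, CD3E and SPI1 of leukocytes, DCN, LUM, PDGFRB and FAP of fibroblasts and CDH5 and VWF of endothelium averaged under 1 CPM in each group, with LUM at 2.07 CPM in WT 2. The part of these markers in the results was not tested.

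No cytokine or colony-stimulating factor transcript differed between IRF1-KO and WT pools by more than the spread between pools. In bulk RNA of a pool, fewer cells that express a gene and less RNA per cell cannot be told apart. Of the 9 genes counted deeply enough to be tested, 0 passed an adjusted p of 0.05 with edgeR (quasi-likelihood test, Benjamini-Hochberg over all genes), where 0.127% of 13388 tested genes passed. With a share that low, 0 of 9 says little about these genes. At an unadjusted p under 0.05 the count was also 0 of 9, against 9.14% of all tested genes. DESeq2 called 0 of 9 at an adjusted p under 0.05, against 2.53% of its genes. For IL1RN the unadjusted DESeq2 p was 0.0406 (adjusted p = 0.453), and the share of all genes with an unadjusted DESeq2 p under 0.05 is not given here. Adjusted p for the 9 genes lay between 0.68 and 0.971 with edgeR and between 0.453 and 0.993 with DESeq2. In each of the 10 genes the IRF1-KO and WT libraries overlapped. Over all tested genes, 6.75% had every IRF1-KO library below every WT library and 8.03% had every IRF1-KO library above. The median log2 fold change (IRF1-KO over WT) was −0.16 over the 9 genes and −0.02 over all tested genes, and 5 of the 9 values were negative.

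**Figure D1:**
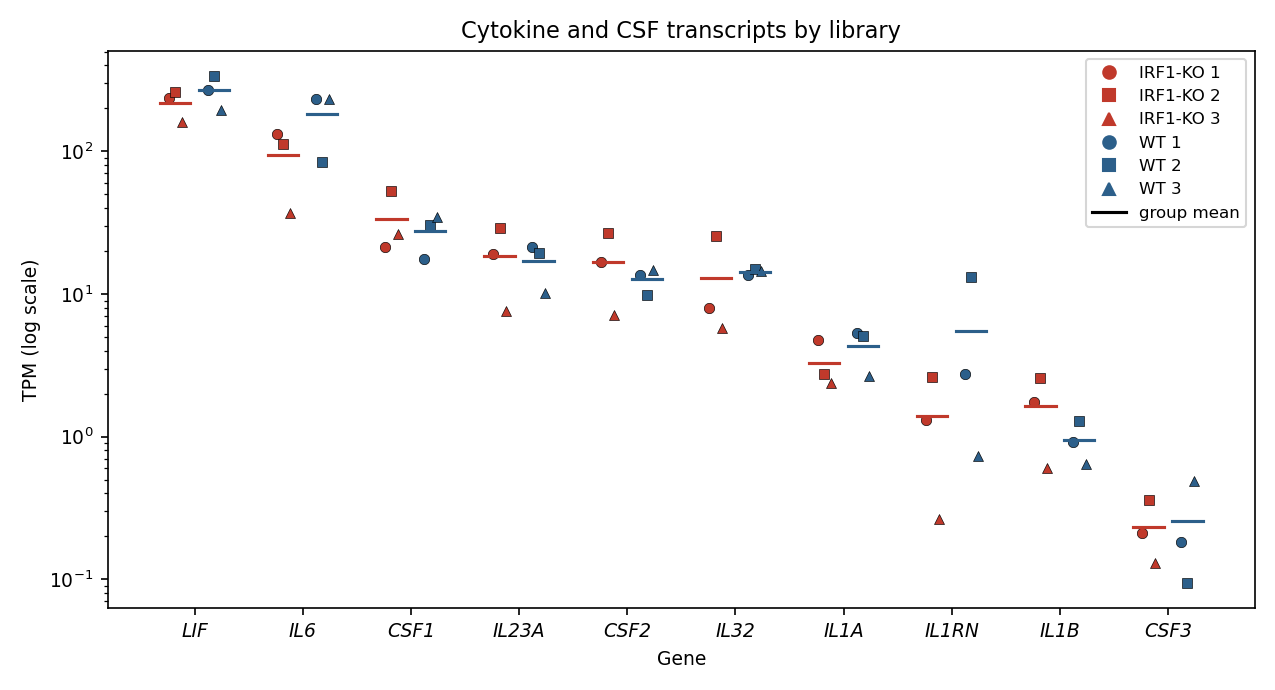
Transcript level of each gene in TPM (log axis), with IRF1-KO libraries in red on the left and WT libraries in blue on the right of each pair. Points are single libraries and bars are group means of 3 libraries; every gene shows overlapping groups, and LIF and IL6 stand highest.

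The order of levels between genes was read on a scale that corrects for transcript length. In TPM, which divides counts by exon length before scaling to library size, the mean over all 6 libraries was 244 for LIF, 138 for IL6, 30.6 for CSF1, 17.7 for IL23A, 14.8 for CSF2 and 13.7 for IL32. The lower levels were 3.83 TPM for IL1A, 3.47 TPM for IL1RN, 1.3 TPM for IL1B and 0.245 TPM for CSF3. LIF, whose libraries ranged from 161 to 337 TPM, was above IL6 in 5 of 6 libraries. IL6 was above CSF1 in 6 of 6, although its range of 37 to 233 TPM reached into that of CSF1, 17.6 to 53.1 TPM. CSF1, IL23A, CSF2 and IL32 formed a run of neighbours with overlapping ranges. The ranges of IL32 and IL1A did not overlap, at 5.8 to 25.3 and 2.38 to 5.33 TPM, and neither did those of IL1B and CSF3. IL1A, IL1RN and IL1B overlapped with each other, with IL1RN spanning 0.266 to 13.1 TPM.

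Bases before the RefSeq gene starts (GRCh38.p14) are shown for the genes that were lowest in the same library, as described further on, and that hold the letters of a factor's element outside exons of the counted genes. The letters searched, on both strands of the 250 bases before each start, were GGGANNTTCC for NF-kappaB, TTGCNNAA for C/EBP, TGANTCA for AP-1 and GAAANNGAAA for IRF factors. They occur in 1.4%, 9.06%, 6.59% and 3.02% of 34943 such windows. RefSeq starts were matched for 7 of the 10 genes, with 11 windows in all; LIF, CSF1 and CSF3 were not matched. Capitals mark the element, which does not overlap another searched element in any of these lines. The first IL6 line is NF-kappaB (chr7:22727117-22727146, plus strand), the second C/EBP (chr7:22727034-22727063, plus strand), the IL1B line C/EBP (chr2:112836976-112837005, minus strand), the IL23A line AP-1 (chr12:56338795-56338824, plus strand) and the first IL1RN line AP-1 (chr2:113117736-113117765, plus strand).
IL6 NF-kappaB: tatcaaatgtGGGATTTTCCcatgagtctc
IL6 C/EBP: aggacgtcacaTTGCACAAtcttaataagg
IL1B C/EBP: tggtgatacatTTGCAAAAtgtgtcatagt
IL23A AP-1: tcccacctgctgTGAGTCAcctgctggtat
IL1RN AP-1: tttctgctagccTGAGTCAccctcctggaa
IL1RN promoter: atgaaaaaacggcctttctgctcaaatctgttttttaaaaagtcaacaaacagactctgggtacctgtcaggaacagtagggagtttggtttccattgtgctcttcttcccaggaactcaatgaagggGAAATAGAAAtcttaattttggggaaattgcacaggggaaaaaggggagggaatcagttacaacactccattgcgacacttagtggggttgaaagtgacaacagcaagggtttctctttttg
The last line is the window before a second IL1RN start (chr2:113127239-113127488, plus strand), with the IRF letters in capitals. IL1RN was the only matched gene with the IRF letters, and the window of another IL1RN start holds the same match. Matches in IL1A (AP-1) and IL32 (NF-kappaB) fell in exons of the table and are not printed, and the CSF2 window held none of the 4 elements. Letters in a window do not show binding or use of a site.

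IL1A, IL1B and IL1RN lie on chromosome 2, IL1A at 112773915 to 112784590 and IL1B at 112829751 to 112836903 on the minus strand, with 45.2 kb between them. IL1RN follows 270.3 kb further on the plus strand at 113107214 to 113134016. IL1A, which encodes an agonist that is active without cleavage, had 2.62, 1.54 and 1.31 CPM in IRF1-KO libraries 1 to 3, against 3.06, 2.77 and 1.49 CPM in WT libraries 1 to 3. Those groups overlapped, IRF1-KO 1 lying among the WT values. IRF1-KO over WT gave a log2 fold change of −0.43 ± 0.41 (SE, 95% interval −1.39 to 0.52).

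IL1B, whose product is an inactive precursor until it is cleaved, had 1.4, 2.09 and 0.487 CPM in IRF1-KO libraries and 0.766, 1.03 and 0.529 CPM in WT libraries. IRF1-KO held both the highest and the lowest library. The log2 fold change was 0.78 ± 0.57 (SE, 95% interval −0.54 to 2.10), from raw counts of 23, 60 and 13 in IRF1-KO and 14, 19 and 11 in WT, so counting error is large here.

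IL1RN, the receptor antagonist gene, had the largest fitted difference of the 9 genes and the widest error. It had 1.1, 2.23 and 0.225 CPM in IRF1-KO libraries, against 2.41, 11 and 0.625 CPM in WT libraries. WT 2 stood above every other library and IRF1-KO 3 below every other. Raw counts were 18, 64 and 6 in IRF1-KO and 44, 203 and 13 in WT. The fitted fold was 3.91 lower in IRF1-KO (log2 fold change −1.97 ± 1.12, SE; 95% interval −4.61 to 0.68; adjusted p = 0.687). Its size depended on single libraries. Without WT 2 the fold shrank to 1.26 (log2 fold change −0.34, adjusted p = 0.997), and without IRF1-KO 2 it grew to 7.42 (−2.89, adjusted p = 0.734).

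The balance of antagonist to agonists was also followed within each library, as IL1RN counts per kilobase over those of IL1A plus IL1B. This ratio was 0.2, 0.49 and 0.0891 in IRF1-KO libraries 1 to 3, against 0.438, 2.07 and 0.22 in WT libraries 1 to 3. WT 2 was the 1 library with more antagonist than agonist transcript. On the log2 scale the ratio averaged −2.28 ± 1.23 in IRF1-KO and −0.78 ± 1.66 in WT (SD, n = 3 each). The difference of −1.50 gave p = 0.4 in a two-sided exact permutation test, in which 3 against 3 libraries cannot go below 0.1. Without WT 2 the difference was −0.59 (exact permutation p = 0.6), and without WT 3 it was −2.21 (exact permutation p = 0.3). Against IL1B alone it was −2.23, with p = 0.1 in the same exact test, and against IL1A alone −1.22, with p = 0.4.

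IL6 (chromosome 7, 22725884 to 22732002, plus strand) encodes a cytokine that acts through IL6R and IL6ST. Its level was 70.5, 60.5 and 19.9 CPM in IRF1-KO libraries, against 130, 45.1 and 127 CPM in WT libraries. WT 1 and WT 3 were the highest, WT 2 lay below IRF1-KO 1 and 2, and IRF1-KO 3 was the lowest. Means were 50.3 ± 26.8 CPM in IRF1-KO and 101 ± 48.1 CPM in WT (SD, n = 3 each). The fitted fold was 2.01 lower in IRF1-KO, with a log2 fold change of −1.0 ± 0.555 (SE; 95% interval −2.33 to 0.32; adjusted p = 0.68). Exons of STEAP1B on the opposite strand overlap those of IL6, and the strand setting of the counting is not given. STEAP1B had 104, 188 and 65 counts in IRF1-KO and 124, 60 and 137 counts in WT, against 1156, 1734 and 530 for IL6 in IRF1-KO and 2378, 830 and 2638 in WT. Its share in the IL6 values was not tested.

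LIF (chromosome 22, 30240453 to 30246759, minus strand) encodes leukaemia inhibitory factor, which binds LIFR and IL6ST. It was the most abundant of the transcripts and the most precisely measured, with 238, 264 and 162 CPM in IRF1-KO libraries and 282, 337 and 201 CPM in WT libraries. IRF1-KO 1 and 2 lay between WT 3 and WT 1. The log2 fold change was −0.31 ± 0.24 (SE, adjusted p = 0.788). Its 95% interval of −0.86 to 0.25 leaves out a 2-fold difference in either direction.

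IL23A (chromosome 12, 56334174 to 56340410, plus strand) encodes the subunit that pairs with the product of IL12B to form IL-23. It had 5.85, 8.87 and 2.32 CPM in IRF1-KO libraries, against 6.79, 5.87 and 3.17 CPM in WT libraries, and the IRF1-KO libraries spanned the WT values. The fitted difference was 0.11 ± 0.50 on the log2 scale (SE, 95% interval −1.05 to 1.27). The partner gene IL12B had 1, 1 and 3 counts in IRF1-KO libraries and 1, 0 and 0 counts in WT libraries, at or under the 3 counts that an absence of reads allows.

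IL32 (chromosome 16, 3065297 to 3082192, plus strand) encodes a pro-inflammatory cytokine. Its 6.65, 21.2 and 4.83 CPM in IRF1-KO libraries stood on either side of the WT libraries, which were close together at 11.8, 12.4 and 12.3 CPM. Means were 10.9 ± 8.95 CPM in IRF1-KO and 12.2 ± 0.311 CPM in WT (SD, n = 3 each). The log2 fold change of −0.16 ± 0.52 (SE, 95% interval −1.39 to 1.07) depended on single libraries. Without IRF1-KO 2 it was −1.09 (adjusted p = 0.286), without IRF1-KO 1 it was 0.112 and without IRF1-KO 3 it was 0.2.

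CSF1 (chromosome 1, 109910242 to 109930992, plus strand) encodes the macrophage colony-stimulating factor. It had 29.1, 72.6 and 35.6 CPM in IRF1-KO libraries, against 24.9, 41.4 and 47.7 CPM in WT libraries. IRF1-KO 2 was the highest library and the other IRF1-KO libraries lay within the WT range. The log2 fold change was 0.27 ± 0.39 (SE, 95% interval −0.65 to 1.19), and it was −0.23 without IRF1-KO 2.

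CSF2 (chromosome 5, 132073789 to 132076170, plus strand) encodes the granulocyte-macrophage colony-stimulating factor. It is the neighbour of IL3, at a gap of 10.6 kb, and lies 405.4 kb from IRF1 on the same chromosome. CSF2 had 3.41, 5.52 and 1.46 CPM in IRF1-KO libraries, against 2.9, 2.01 and 3.08 CPM in WT libraries, with the highest and the lowest library both IRF1-KO. The log2 fold change was 0.38 ± 0.48 (SE, 95% interval −0.73 to 1.48), and −0.14 without IRF1-KO 2.

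CSF3 (chromosome 17, 40015361 to 40017813, plus strand) encodes the granulocyte colony-stimulating factor and was barely counted. It had 2, 6 and 2 counts in IRF1-KO libraries and 2, 1 and 6 counts in WT libraries. It fell under the filter on low counts and was not tested. Such counts cannot show a difference at this depth.

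**Figure D2:**
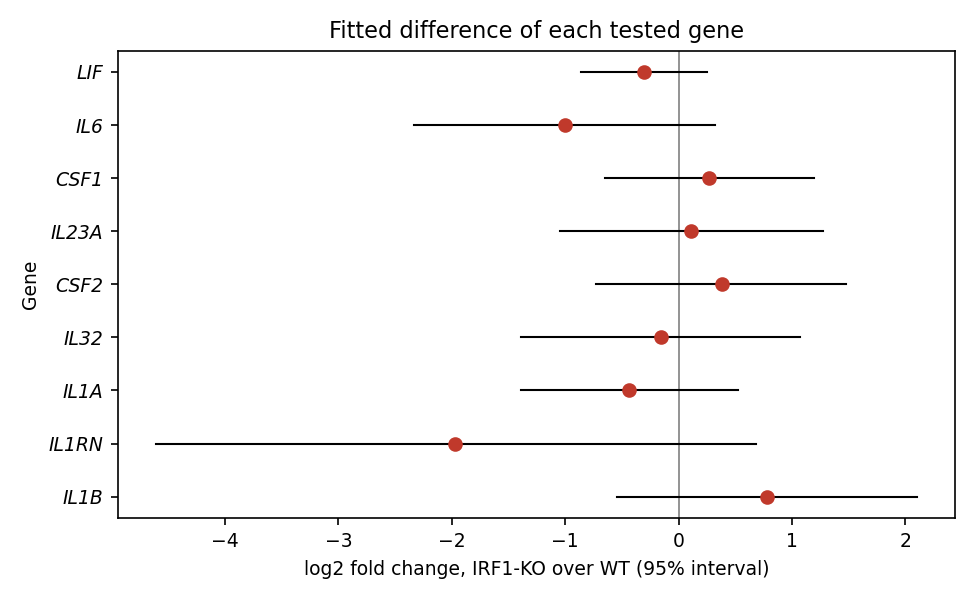
Fitted log2 fold change of IRF1-KO over WT for the 9 tested genes (points) with 95% intervals (lines). Every interval includes 0, from the narrow one of LIF (−0.86 to 0.25) to the wide one of IL1RN (−4.61 to 0.68).

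In the IRF1-KO group all 9 tested genes varied more between pools than the median gene of like level, and in the WT group 6 of 9 did. In the IRF1-KO group the SD of log2 CPM over the 3 pools was 0.995 for IL6, 1.11 for IL32, 1.46 for IL1RN and 0.37 for LIF. Among tested genes within 0.5 log2 CPM of the same mean level, 99.7%, 99.2%, 96.9% and 93.2% had a smaller SD in IRF1-KO. In the WT group the SD was 0.87 for IL6, 0.04 for IL32, 1.98 for IL1RN and 0.38 for LIF, and 98.9%, 1.88%, 97.7% and 90.4% of genes of like level had a smaller one. The 3 genes below the median in WT were IL32, CSF2 and IL1B. CSF2 had an SD of 0.94 in IRF1-KO and 0.32 in WT, larger than in 93.8% and 36.7% of genes of like level. IL1B had an SD of 0.99 in IRF1-KO and 0.43 in WT, larger than in 89.1% and 40.3% of such genes. These contrasts of spread between groups were not tested. IL1A was closer to genes of its level, with an SD of 0.50 in IRF1-KO and 0.54 in WT, larger than in 65.5% and 59.4% of genes of like level.

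**Figure D3:**
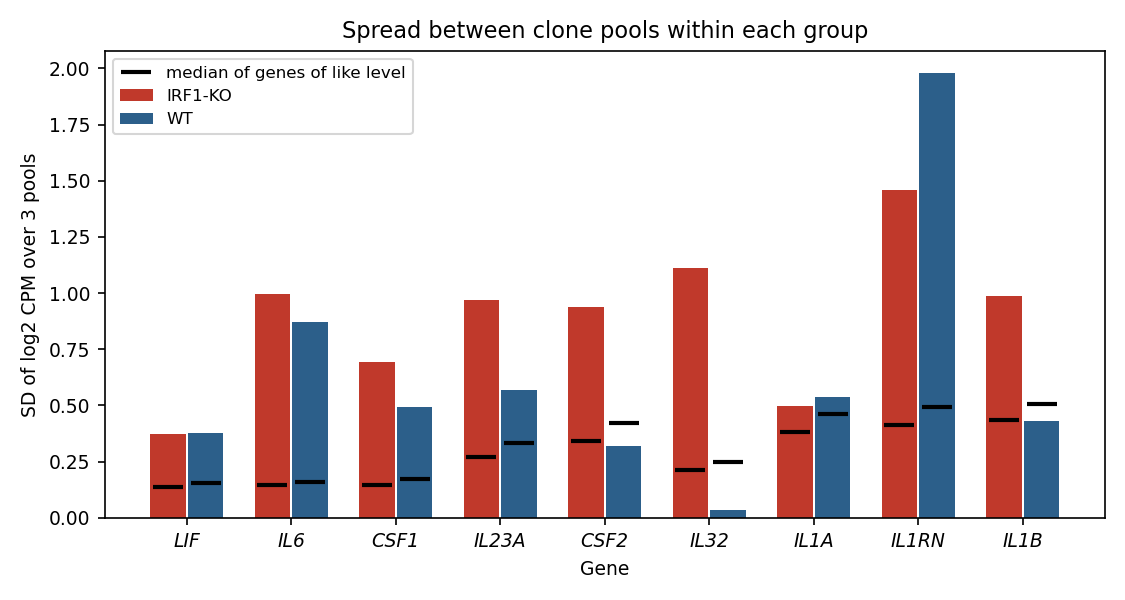
SD of log2 CPM over the 3 clone pools of each group, IRF1-KO in red left of WT in blue, for the 9 tested genes. Black marks give the median SD of tested genes of like level in the same group; IL6 stands at 0.995 in IRF1-KO and 0.87 in WT, against marks of 0.145 and 0.16.

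The genes also shared part of an order among the IRF1-KO pools, while the order of the WT pools differed between genes. The place of IRF1-KO 1 varied, as it was above IRF1-KO 2 for IL1A and IL6 and below IRF1-KO 3 for CSF1. IRF1-KO 2 was above IRF1-KO 3 for 9 of 9 tested genes, by 1.17-fold for IL1A, 1.63-fold for LIF, 2.04-fold for CSF1 and 3.05-fold to 9.94-fold for the other 6. Over all tested genes 51.9% had this order. IRF1-KO 3 was the lowest of all 6 libraries for 8 of 9 genes, the exception being CSF1, and it was the lowest for 17.7% of all tested genes. For IL1A and IL1B its distance from WT 3 was within counting error. IL1A had 35 counts in IRF1-KO 3 and 31 in WT 3 (1.31 and 1.49 CPM), and IL1B had 13 and 11 (0.487 and 0.529 CPM). IL1A in IRF1-KO 2 and 3 was also close, at 44 and 35 counts. IRF1-KO 2 was the highest of all libraries for 5 of 9 (CSF1, IL23A, CSF2, IL32 and IL1B), against 16.9% of all tested genes. IL6, IL1A, LIF and IL1RN had their highest library in WT. These orders were noticed in the data and are given as descriptions of single pools. The summed epithelial markers had IRF1-KO and WT ranges that overlapped, and their part in the order was not tested.

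**Figure D4:**
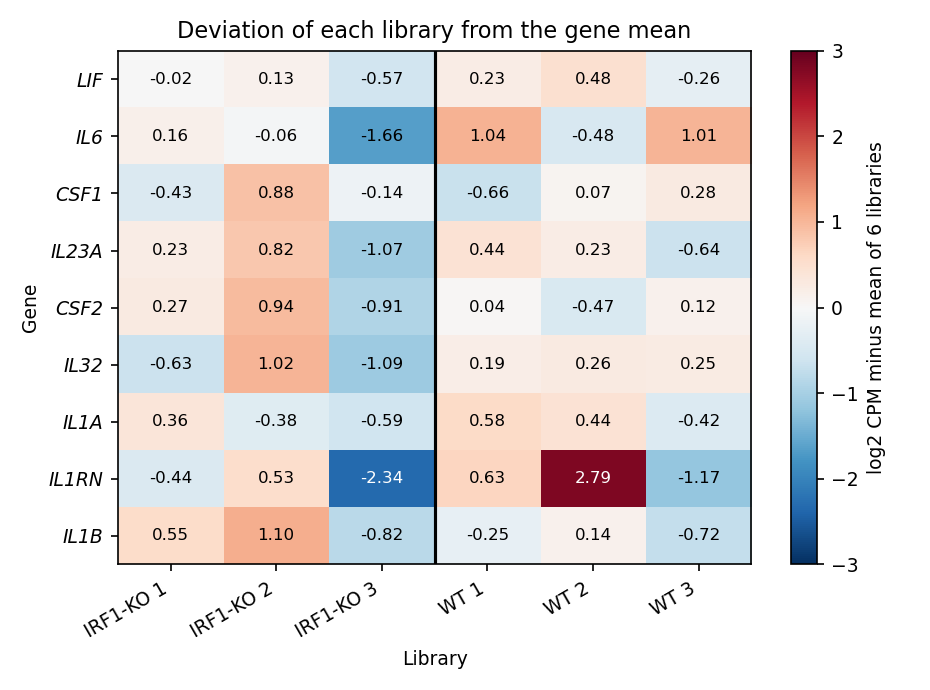
Deviation of each library from the gene's mean log2 CPM for the 9 tested genes (rows), with the IRF1-KO libraries left of the line and the WT libraries right of it. IRF1-KO 3 is the bluest column and is lowest in 8 of 9 rows, while WT 2 holds the single highest cell (IL1RN).

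The profiles of the 3 most abundant genes were compared with those of all other tested genes by the mean absolute difference of centred log2 CPM over the 6 libraries. For LIF the nearest genes were LRP2BP (0.06) and HEATR4 (0.06), against a median of 0.34 over all genes. For IL6 they were SRGN, a proteoglycan of secretory granules (0.35), and the chemokine gene CCL20 (0.35), against 0.77. SRGN had 22.6, 35 and 4.68 CPM in IRF1-KO libraries and 25.3, 15.2 and 39.7 CPM in WT libraries. For CSF1 they were KLHDC8B (0.09) and DLL3 (0.12), against 0.45. Several of these genes had few counts per library: 19 to 37 for HEATR4, 11 to 39 for CCL20 and 5 to 31 for DLL3. The nearest genes were picked from all 13388 tested genes, so close matches can arise without shared control, which was not tested.

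Receptors, partners and regulators of the cytokines were read from 7 lists, with 67 of 86 genes tested. With edgeR 0 of 67 passed an adjusted p of 0.05, and at an unadjusted p under 0.05 there were 5 higher and 8 lower (13 of 67), against 9.14% of all tested genes, of which 721 were higher and 502 lower. DESeq2 called 1, CASP1, lower in IRF1-KO. The median log2 fold change was −0.16 over the 67 genes, and 48 of them were negative, against 7141 of 13388 tested genes. Of the 67 genes, 10 had every IRF1-KO library below every WT library and 6 had every one above, against 6.75% and 8.03% of all tested genes.

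CASP1, which encodes the protease that cleaves the IL-1 beta precursor, stood furthest from 0 in these lists. It had 0.366, 0.524 and 0.187 CPM in IRF1-KO libraries (6, 15 and 5 counts), against 2.96, 3.75 and 5.82 CPM in WT libraries (54, 69 and 121 counts). The groups were well apart, with a fitted fold of 11.4 lower in IRF1-KO (log2 fold change −3.52 ± 0.475, SE). It missed the threshold with edgeR (adjusted p = 0.0555) and passed it with DESeq2 (adjusted p = 1.6e-07); of the 14 alternatives that tested it, it also passed without the filter on low counts (adjusted p = 0.0281) and without WT 3 (adjusted p = 0.0446), and its adjusted p reached 0.283 without WT 2. NLRP1, an inflammasome sensor, had a log2 fold change of −1.03 ± 0.315 (adjusted p = 0.336), and IL18, another substrate of caspase-1, one of −0.26 ± 0.18 (adjusted p = 0.747). Of the 13 genes in the list of other IL-1 ligands and processing, 5 were tested and the median was −0.26.

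**Figure D5:**
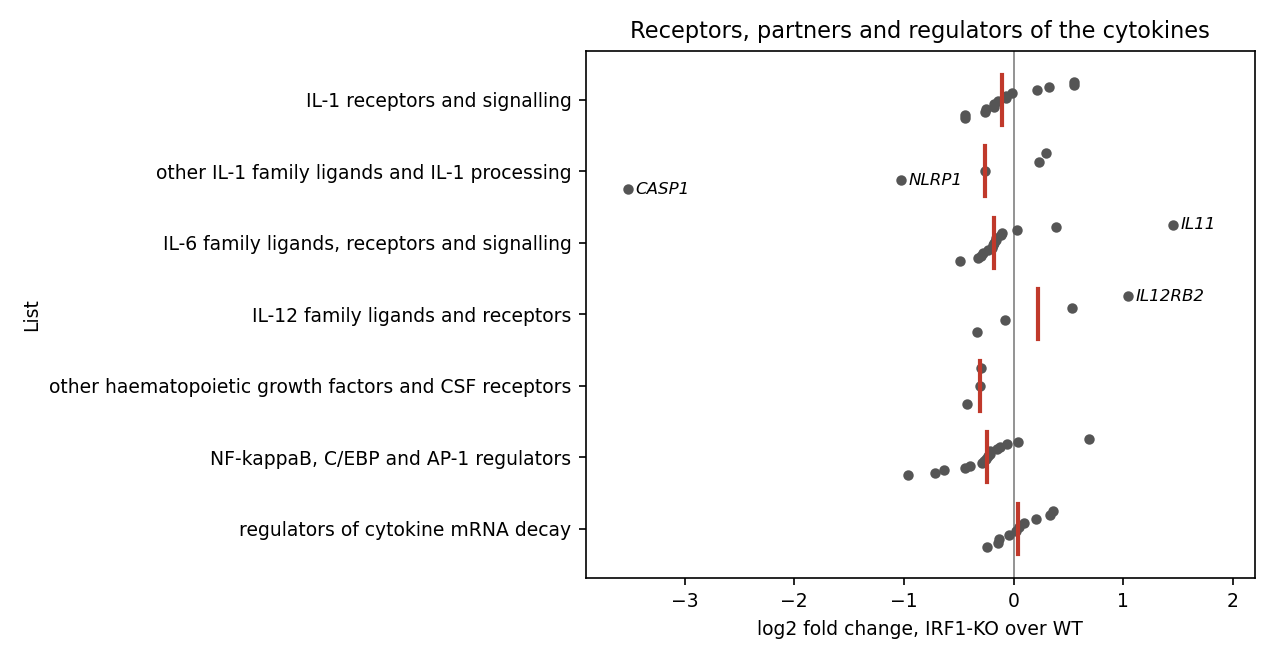
Log2 fold change of IRF1-KO over WT for each tested gene (points) of the 7 lists, with the list median as a red bar. CASP1 lies at −3.52, apart from all other points, and no list median is beyond −0.31.

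Among 14 genes of IL-1 receptors and signalling the median was −0.11. The adaptor MYD88 (−0.45 ± 0.13, SE, adjusted p = 0.305) and the inhibitory kinase gene IRAK3 (−0.45 ± 0.13, adjusted p = 0.299) had all IRF1-KO libraries below WT, and IRAK1 (0.55 ± 0.16, adjusted p = 0.312) had all above. Of 17 genes of the IL-6 family, 15 were tested, with a median of −0.18. STAT3, the transcription factor downstream of IL-6 and LIF, had 173, 187 and 164 CPM in IRF1-KO libraries and 209, 218 and 209 CPM in WT libraries (−0.28 ± 0.10, adjusted p = 0.433). The kinase genes JAK2 (−0.48 ± 0.18, adjusted p = 0.477) and TYK2 (0.39 ± 0.14, adjusted p = 0.429) pointed in opposite directions. None of these passed the threshold.

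In the NF-kappaB, C/EBP and AP-1 list all 16 genes were tested and 14 values were negative, with a median of −0.24, against 7141 negative values and a median of −0.02 over the 13388 tested genes. TNFAIP3, which encodes the feedback inhibitor A20, had a log2 fold change of −0.72 ± 0.27 (adjusted p = 0.486), NFKB1 one of −0.29 ± 0.11 (adjusted p = 0.513) and JUNB one of 0.69 ± 0.30 (adjusted p = 0.552). With an offset for transcript GC content, JUNB was at 0.27 (edgeR adjusted p = 0.885). The 10 genes that regulate decay of cytokine mRNA had a median of 0.04. In that list KHSRP was at 0.33 ± 0.12 (adjusted p = 0.465), RC3H1 at −0.24 ± 0.14 (adjusted p = 0.692) and ARID5A at 0.36 ± 0.22 (adjusted p = 0.718). With the GC offset ARID5A was at 0.0457 (edgeR adjusted p = 0.978).

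The IL-12 family had 4 of 8 genes tested, with a median of 0.23. IL12RB2, a receptor chain, was at 1.04 ± 0.41 (SE, adjusted p = 0.513), and IL12A and EBI3 were at −0.33 ± 0.30 and 0.53 ± 0.72 (adjusted p = 0.819 and 0.888). Counts were low for IL12RB2, at 10, 21 and 19 in IRF1-KO and 8, 6 and 5 in WT. EBI3 had 7, 11 and 38 counts in IRF1-KO and 3, 16 and 11 in WT, so counting error is large for both. Of the 8 other growth factors and colony-stimulating factor receptors, 3 were tested, with a median of −0.31. They were CSF2RA (−0.42 ± 0.23, adjusted p = 0.67), KITLG (−0.29 ± 0.32, adjusted p = 0.854) and FLT3LG (−0.31 ± 0.42, adjusted p = 0.889).

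Receptors of the secreted factors were present for some of them and not detected for others; the genes in this paragraph are named as receptors of the 10 factors, with their values known. IL1R1 had 18.1 to 26.1 TPM in IRF1-KO and 20.5 to 26.2 TPM in WT. IL6ST had 116 to 144 TPM in IRF1-KO and 118 to 166 TPM in WT, LIFR had 18.5 to 25.2 TPM in IRF1-KO and 23.4 to 28 TPM in WT, and IL6R had 7.29 to 12.9 TPM in IRF1-KO and 7.27 to 16.8 TPM in WT. CSF2RA, the ligand-binding chain for the product of CSF2, had 10.5 to 15.4 TPM in IRF1-KO and 12.9 to 20.1 TPM in WT, whereas its signalling partner CSF2RB had 0 counts in all 6 libraries. CSF3R and IL23R also had 0 counts in all 6, which allows up to 3 counts per library, or 0.105 to 0.183 CPM. CSF1R had 6, 13 and 5 counts in IRF1-KO and 5, 6 and 7 counts in WT.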

How the data were processed

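Poly(A)-selected RNA of 6 libraries was measured. The authors deposited raw read counts, 1 value for each gene and library; per the submitters' processing notes, featureCounts 0.6.1, edgeR 3.2.2 and GRCh38 (hg38) were used. The sources used here give no aligner, annotation or strand setting. The labels do not say whether the pools were grown separately, and p-values cover only variation among these libraries, which may be technical.

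Symbols came from a table of names. Tests ran under R 4.3.3, with edgeR 4.0.16 for the reported fit: filterByExpr, TMM factors, robust dispersion, quasi-likelihood F test, two-sided, Benjamini-Hochberg over 13388 tested genes, threshold 0.05. Standard errors and intervals are those implied by the F statistic. TPM used the exon lengths of the table. Counts and floors cover counting error only. The procedure was checked on simulated counts. Other settings tried were scaling by RLE or by upper quartile, dropping the low-count filter, requiring at least 5 CPM in 3 libraries, DESeq2 1.42.0, limma-voom (limma 3.58.1), the replicate number as a block, an offset removing a spline (5 degrees of freedom) of transcript GC content (GENCODE 29), and leaving out each library.

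The members and gene lists were chosen with earlier results of these data known. Named were IRF1, all 10 members, per list the genes past the threshold or else up to 3 with the smallest p, and for the 3 members with the highest CPM the 2 genes of most similar profile. Promoter sequence is from RefSeq.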

Additional observations from a re-analysis of the deposited data

How the results depend on the processing

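None of the cytokine genes passed the threshold under any of the 15 alternatives, in which their adjusted p lay between 0.196 and 0.997. The direction was kept in every alternative that tested the gene for 5 of the 9: LIF, IL6, IL1A, IL1RN and IL1B. It turned for IL32 without IRF1-KO 1 or IRF1-KO 3 (range over left-out libraries −1.09 to 0.20), for CSF1 without IRF1-KO 2 (−0.23 to 0.53), for CSF2 without IRF1-KO 2 (−0.14 to 0.75) and for IL23A without IRF1-KO 2 or WT 3 (−0.38 to 0.485), with limma-voom (−0.014) and with the replicate block (−0.0109). Among the genes of similar profile it turned for SRGN (−0.99 to 0.11), KLHDC8B (−0.29 to 0.50) and DLL3 (−0.54 to 0.41; −0.225 with the GC correction and −0.303 with that correction and the block). The cause was not tested. The IL1RN ratio kept its sign, from −2.21 to −0.59 over left-out libraries and −1.50 with the replicate block (exact permutation p = 0.25, the smallest 3 pairs allow), and it was −1.58 from raw counts (exact permutation p = 0.2).

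The count over all genes was 17, and it was 31 with no filter, 332 with DESeq2, 31 with the replicate block, 11 with the GC correction and the block, and 3 to 91 without single libraries (3 without IRF1-KO 1, 3 without IRF1-KO 3, 5 without WT 2 and 91 without WT 3). Among pathway genes it was 1 with no filter, 1 with DESeq2 and 0 to 1 without single libraries, CASP1 in each case. Over all tested genes, replicate numbers showed no consistent pairing. With 3 libraries per group this check cannot exclude a pairing. Deviations of same-numbered libraries correlated at −0.0155, 0.253 and 0.0571, and not every library correlated best with its own number. The block changed no call among the members, while calls over all genes went from 17 to 31. With it the unadjusted edgeR p fell below 0.05 for IL1RN and LIF. The share of all genes below 0.05 with the block is not given here. For IL1RN the unadjusted edgeR p went from 0.122 to 0.00474 (adjusted p = 0.196 with the block). For LIF it went from 0.235 to 0.0268 (adjusted p = 0.388 with the block). In both genes each IRF1-KO library lay below the WT library of the same number. Depth limits IL1A, IL1B and CSF3 most. Low counts also limit IL1RN, but its SD of log2 CPM between pools was larger than in most genes of like level (96.9% in IRF1-KO and 97.7% in WT).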

Other observations

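The order among IRF1-KO pools seen for the cytokines was set beside that of their regulators, a look chosen after the data were seen. IRF1-KO 3 was the lowest of the 6 libraries for 8 of 16 NF-kappaB, C/EBP and AP-1 genes and for 28 of 67 genes over the 7 lists, against 17.7% of all tested genes. IRF1-KO 2 was the highest for 3 of 16 and for 13 of 67, against 16.9% of all tested genes. The median log2 ratio of IRF1-KO 2 over IRF1-KO 3 was 0.16 over the 67 genes, against 1.92 over the 9 cytokine genes. Among these regulators BIRC3, an NF-kappaB target that inhibits apoptosis, had 135, 181 and 74 CPM in IRF1-KO libraries and 167, 205 and 232 CPM in WT libraries. ZC3H12A, an RNase that degrades IL6 mRNA, had 44.6, 62.3 and 22.8 CPM in IRF1-KO libraries, against 39.1, 31.6 and 42 CPM in WT libraries. Not all regulators had this order. IRF1-KO 2 was above IRF1-KO 3 for 11 of 16 NF-kappaB, C/EBP and AP-1 genes and for 44 of 67 over the 7 lists, against 51.9% of all tested genes. The order was reversed for FOS (213, 110 and 254 CPM in IRF1-KO libraries) and ATF3 (46.9, 23.2 and 50.7 CPM).

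IL11, a cytokine of the IL-6 family, had its highest value in the same pool as CSF1, CSF2, IL23A, IL32 and IL1B. It had 2.74, 11.5 and 3.03 CPM in IRF1-KO libraries and 3.01, 0.598 and 2.74 CPM in WT libraries, with a log2 fold change of 1.45 ± 0.75 (SE; edgeR adjusted p = 0.644). IRF1-KO 2 stood apart on the high side and WT 2 on the low side. These genes were named after their values were seen.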
